A study of Mus musculus with 9 samples.

Results

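The STAT factors and their feedback inhibitors are the intracellular readout of cytokine receptors in T cells. The set described here holds 9 genes, chosen by symbol from the 39253 rows of the deposited table: the signal transducers Stat2, Stat3, Stat4, Stat5a, Stat5b and Stat6, and the inhibitors Socs1, Socs3 and Cish. All 9 were present once in the table, and all 9 passed the low-count filter in every comparison. The samples were CD4+ T cells of mice on day 9 of experimental autoimmune encephalomyelitis (EAE), an induced disease used as a model of multiple sclerosis. Wildtype mice gave 4 libraries and mice labelled ERα KO, a knockout of estrogen receptor alpha, gave 5. The labels assign wildtype replicates 1 and 2 and knockout replicates 1, 2 and 3 to batch 1. They assign wildtype replicates 3 and 4 and knockout replicates 4 and 5 to batch 2. The labels give neither the cells in which the receptor was deleted nor the tissue, age, strain or sex of the mice. The series title names dendritic cells, whereas the RNA came from CD4+ T cells.

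Cytokine receptors carry Janus kinases, which phosphorylate STAT proteins, and the phosphorylated STATs pair and enter the nucleus as transcription factors. Among their targets are genes of the SOCS family, whose products bind the receptors or kinases and shut the signal down, so that SOCS and CIS transcripts are commonly read as a trace of recent signalling. In T helper cells STAT4 serves IL-12, STAT6 serves IL-4, STAT3 serves IL-6, IL-21 and IL-23, the STAT5 pair serves IL-2 and IL-7, and STAT2 serves type I interferon. STAT activity depends on phosphorylation, which RNA levels do not measure.

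The 4 stretches below, from the start regions of the inhibitors and of Stat2, were chosen because they hold matches to STAT or interferon elements. They come from RefSeq promoter windows of assembly GRCm38.p6, are written 5′ to 3′ on the strand of the gene, and have the matching bases in capitals. The deposited table was made with another build, so the coordinates belong to the sequences only.
Cish, chr9:107296654-107296683, plus strand: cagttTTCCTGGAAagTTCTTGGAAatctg
Socs3, chr11:117969487-117969536, minus strand: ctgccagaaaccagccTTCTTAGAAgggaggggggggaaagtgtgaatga
Socs1, chr16:10785587-10785636, minus strand: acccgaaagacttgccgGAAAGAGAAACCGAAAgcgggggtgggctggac
Stat2, chr10:128270258-128270307, plus strand: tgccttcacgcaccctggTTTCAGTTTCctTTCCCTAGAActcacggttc

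The letters searched, on both strands, were TTCNNNGAA (a STAT site), the same arms with 4 free bases between them (the spacing that STAT6 prefers), and GAAA repeated after 2 free bases (the core of the interferon-stimulated response element, which STAT2-containing complexes bind). Cish held a pair of STAT sites, beginning at bases 1 and 12 of the annotated transcript. Socs3 held 1 STAT site, 154 bases before its start. Socs1 held a pair of overlapping interferon elements 83 and 77 bases before its start. Stat2 held an interferon element 222 bases and a STAT6-spaced site 210 bases before its start. Over all 32851 windows of 300 bases in the table, 8.30% held a STAT site, 6.95% a STAT6-spaced site and 3.44% an interferon element, and the first pair of patterns can overlap each other. All 9 genes had windows, 12 in total, of which 5 held a match; the remaining match was an interferon element 97 bases before a second start of Stat4. Stat3, Stat5a, Stat5b and Stat6 had none of these letters in their windows. A match describes the sequence and is not a measured binding site.

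The libraries of batch 1 held 4926347 to 11296593 counts and those of batch 2 held 45013017 to 69844721. The targeted gene, Esr1, was counted 101 and 76 times in wildtype replicates 3 and 4 but 9 and 14 times in knockout replicates 4 and 5. Its 55 to 80 counts in the shallower batch 1 overlapped between the genotypes. Per 1000000 counts of the library, its mean in batch 1 was 10.6 in wildtype and 9.64 in knockout. Those of batch 2 were 1.57 and 0.20, so the batch 1 knockout libraries read above the batch 2 wildtype libraries. The batch 1 libraries carried 0.0574% to 0.255% of their counts in 1508 sensory receptor genes that T cells normally do not express, against 0.00258% to 0.0037% in batch 2, and the batch 1 genotypes are used here as labelled, with no check from Esr1. The 5 CD4 T cell markers (Cd4, Cd3e, Cd3d, Cd3g and Cd5) together reached 2570 to 3688 CPM in every library, where CPM is a gene's count for each 1000000 counts that its library holds. The 5 neutrophil markers summed to 253 to 885 CPM in batch 1, to 156 and 15.8 CPM in wildtype replicates 3 and 4, and to 4.28 and 6.52 CPM in knockout replicates 4 and 5. Knockout replicate 3 also differed from the rest of its batch in transcripts of the sex chromosomes. Xist, transcribed from the inactive X, was at 30.4 CPM there, at 1745 to 2680 CPM in the other batch 1 libraries and at 0 to 0.289 CPM in batch 2. Ddx3y, a Y-linked gene, was at 55.4 CPM there, at 0 in the other batch 1 libraries and at 93.6 to 107 CPM in batch 2. In bulk RNA, a smaller share of a cell type and less RNA per cell cannot be told apart. The labels do not say whether samples came from separate animals, so every p-value reflects the spread among these libraries, which may be technical.

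All 9 genes were expressed in every library, and their order of abundance was largely the same throughout. Divided by the length in kilobases of the longest coding transcript in GENCODE M21, Socs3 stood highest, with a median of 80.5 CPM per kilobase over the 9 libraries (59.3 to 97.8). Stat6 followed at 58.8 and Stat5b at 55.6, then Stat3 at 46.1, Stat4 at 37.3, Stat5a at 20.9, Cish at 18.5, Stat2 at 15.3 and Socs1 at 9.78. Socs3 exceeded Stat6 in 9 of 9 libraries, Stat5b exceeded Stat3 in 9 and Stat4 exceeded Stat5a in 9. The neighbours Stat3 and Stat4 kept their order in 6 of 9 libraries and Stat5a and Cish in 6 of 9, so these pairs overlapped. Stat6 and Stat5b kept theirs in 8, as did Cish with Stat2 and Stat2 with Socs1. The transcript models are those of another build than the table's, and a gene with several transcripts may have a shorter mean length than the one used.

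**Figure D1:**
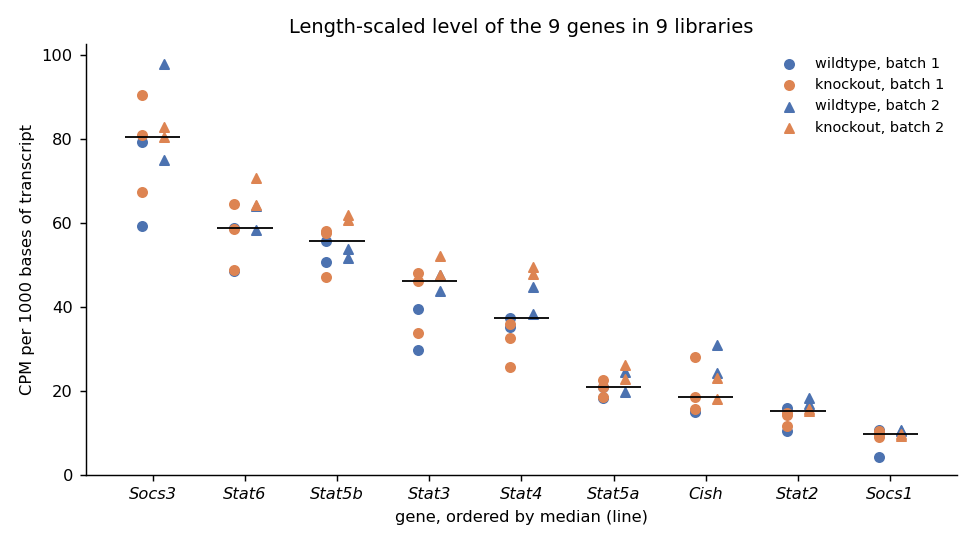
CPM per kilobase of transcript (vertical axis) for the 9 genes in order of their median (line); points are libraries, blue wildtype and orange knockout, circles batch 1 and triangles batch 2. Socs3 has a median of 80.5 and Socs1 of 9.78, and the lone low Socs1 point, at 4.32, is wildtype replicate 1.

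Stat5a and Stat5b, neighbouring genes on chromosome 11 that encode near-identical proteins, were expressed unequally. Per kilobase, Stat5b stood 2.19-fold to 2.78-fold above Stat5a, with a median of 2.62-fold. Their transcripts share 836 words of 31 bases, 20.2% of those of Stat5a and 15.2% of those of Stat5b. Reads from these stretches may therefore have been divided between the pair by estimation, which was not tested. No other pair among the 9 genes shared such a word. The ratio of Stat5a to Stat5b counts lay between 0.268 and 0.34 in all 9 libraries. The ranges of the genotypes overlapped: wildtype libraries ran from 0.27 to 0.34 and knockout libraries from 0.268 to 0.316. Stat3 lies next to Stat5a on the same chromosome.

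Within batch 2, the deeper of the batches, 5 of the 6 STAT genes had higher estimates in the knockout and all 3 inhibitors had lower ones, but none passed the test. Stat5b, a carrier of IL-2 and IL-7 signals, read 269 and 280 CPM in wildtype replicates 3 and 4, and 317 and 322 CPM in knockout replicates 4 and 5. The knockout libraries lay above both wildtype libraries, and the log2 fold change was 0.22 ± 0.088 (SE; edgeR adjusted p = 0.641). Stat4, which transmits IL-12 signals in Th1 cells, was at 114 and 133 CPM in wildtype and at 143 and 147 CPM in knockout libraries, again without overlap. Its log2 fold change was 0.23 ± 0.10 (edgeR adjusted p = 0.659).

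Stat3, Stat6 and Stat5a differed by less. Stat3, which Th17 cells require, was at 287 and 264 CPM in wildtype and at 315 and 287 CPM in knockout libraries, where the lower knockout value only just exceeded the higher wildtype value. Stat6, the transducer of IL-4, was at 241 and 220 CPM in wildtype and at 266 and 242 CPM in knockout libraries. Their log2 fold changes were 0.13 ± 0.11 and 0.14 ± 0.12. Stat5a, at 76.6 and 95.3 CPM in wildtype and at 88.6 and 101.6 CPM in knockout libraries, overlapped between the genotypes and had 0.15 ± 0.13.

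Stat2, a part of the type I interferon complex, was the STAT with the lower estimate. Wildtype libraries had 74.4 and 80.5 CPM and knockout libraries 69.1 and 67.1 CPM. The groups did not overlap, and the estimate was -0.18 ± 0.10 on the log2 scale (edgeR adjusted p = 0.719). The 95% intervals of the 6 STAT genes in batch 2 together spanned log2 fold changes of -0.44 to 0.50, so a knockout level below 0.739 or above 1.41 times wildtype lay outside the interval of each of them.

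Among the inhibitors, Cish, which encodes CIS, an inhibitor of STAT5 and T cell receptor signalling, had the widest difference in batch 2. Wildtype replicates 3 and 4 had 68.9 and 87.9 CPM, and knockout replicates 4 and 5 had 51.3 and 65.6 CPM. All knockout values lay below all wildtype values, by means of 58.5 ± 10.2 against 78.4 ± 13.5 CPM (SD, n = 2 each). The log2 fold change was -0.41 ± 0.17, with a 95% interval of -0.84 to 0.01 (edgeR adjusted p = 0.644).

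Socs1, the main brake on interferon and STAT5 signals, was at 30.6 and 31.1 CPM in wildtype and at 27.0 and 28.4 CPM in knockout libraries of batch 2. The groups did not overlap, and the log2 fold change was -0.15 ± 0.13. Socs3, an inhibitor of IL-6 family signals, was at 250 and 191 CPM in wildtype and at 211 and 205 CPM in knockout libraries, so that both knockout values lay between the wildtype values. Its log2 fold change was -0.08 ± 0.17, and without wildtype replicate 3 it turned to 0.16.

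Counted together, 0 of the 9 genes passed in batch 2 with edgeR (0 at an unadjusted p under 0.05), where 0% of 15910 genes were called and 7.77% had an unadjusted p under 0.05. DESeq2 also called 0 of the 9 and gave 2 an unadjusted p under 0.05, with a lowest adjusted p of 0.451. The 7.77% is from edgeR, and the DESeq2 share of all genes at that level is not given here. On the CPM scale the genotypes did not overlap for 7 of the 9 genes, against 40% of all tested genes. The knockout was higher in 4 (19.6% of all genes) and lower in 3 (20.5%). With the scaling of the test (TMM), Stat3 and Stat6 overlapped and the count was 5 of 9, against 40.2%. With only 2 libraries a group, so many genes separate that the count adds little to the single estimates.

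Several marker lists differed beside these values in batch 2. The 5 proliferation genes (Mki67, Top2a, Cdk1, Ccnb1 and Bub1) summed to 2449 and 1269 CPM in wildtype replicates 3 and 4 and to 549 and 865 CPM in knockout replicates 4 and 5. The CD4 T cell markers summed to 3149 and 3373 CPM in wildtype and to 3645 and 3688 CPM in knockout libraries. Monocyte and macrophage markers summed to 72.3 and 99.9 CPM in wildtype and to 52.6 and 55.4 CPM in knockout libraries, and dendritic cell markers to 5.94 and 9.26 against 2.61 and 3.66 CPM. Red cell markers stood at 1065 CPM in wildtype replicate 3, the library without which Socs3 turned, and at 71.3 to 105 CPM in the other 3 libraries. The part of these lists in the STAT and SOCS values was not tested.

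**Figure D2:**
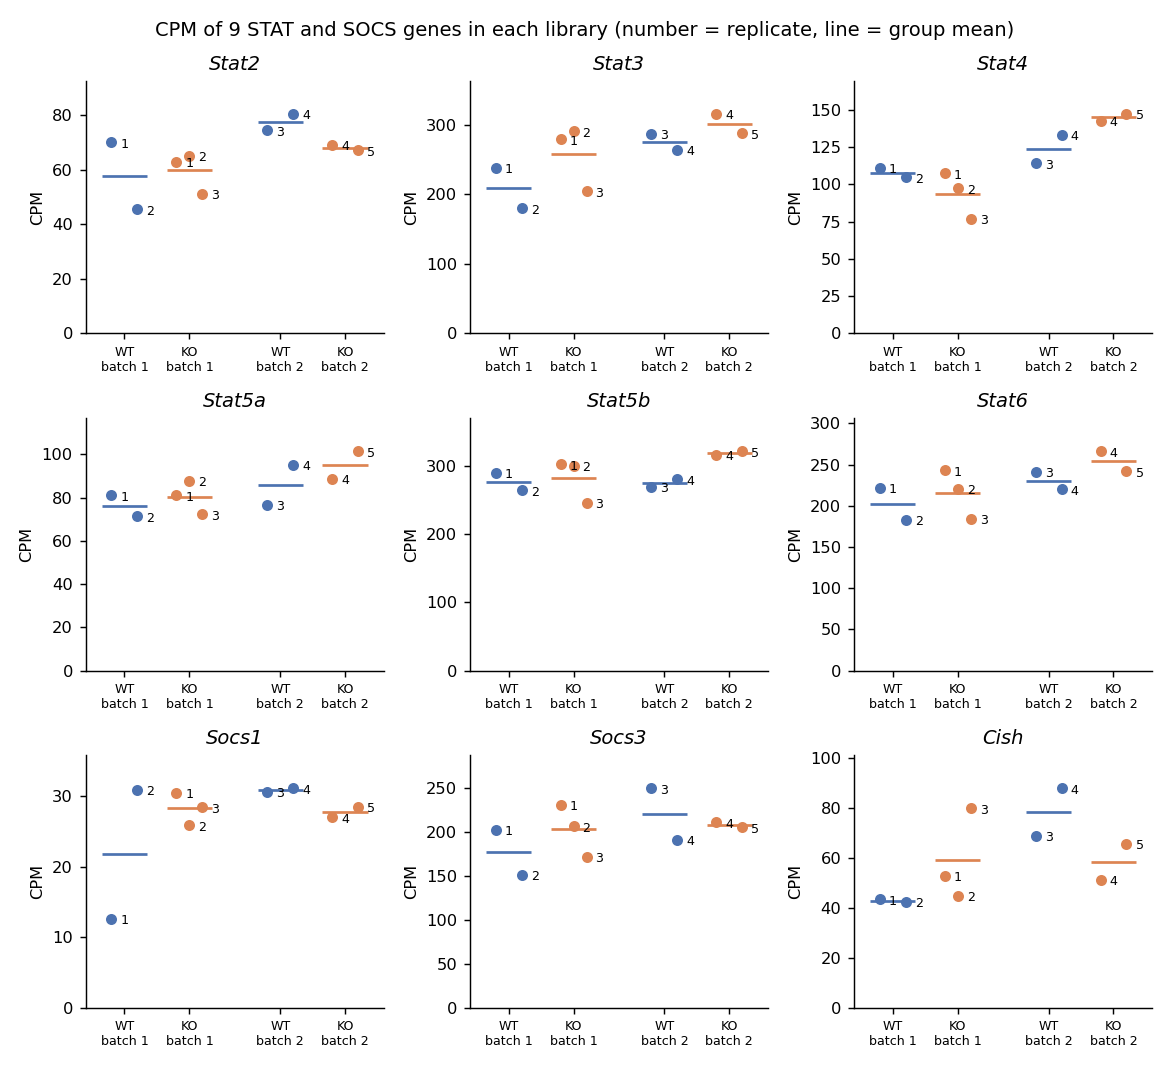
CPM (vertical axis, from 0) of each gene in the 9 libraries, by batch and genotype; numbers are replicates and lines group means. In batch 2 Stat3, Stat4, Stat5b and Stat6 lie higher and Stat2, Socs1 and Cish lower in both knockout libraries, Stat3 and Stat6 only narrowly. In batch 1 Cish is higher at 44.9 to 79.9 CPM against 42.4 and 43.5 CPM.

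Within batch 1, no STAT or SOCS gene passed either, and the estimates were less precise, with standard errors of 0.36 to 0.38 against 0.088 to 0.17 in batch 2. Cish read 43.5 and 42.4 CPM in wildtype replicates 1 and 2, against 52.8, 44.9 and 79.9 CPM in knockout replicates 1, 2 and 3. It was the only one of the 9 genes with no overlap on the CPM scale, 11.1% of them against 16% of all tested genes, or 10.9% with the knockout higher. With TMM scaling it overlapped, as did the other 8, against 14.6% of all genes without overlap. The log2 fold change was 0.27 ± 0.36 (edgeR adjusted p = 1.00), or 0.14 without knockout replicate 3 and 0.06 without wildtype replicate 2.

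Socs1 turned on a single library. It had 12.6 CPM (142 counts) in wildtype replicate 1, 30.9 CPM in wildtype replicate 2, and 30.5, 25.8 and 28.4 CPM in the knockout libraries. The 4 other libraries of the batch were alike, and all batch 2 libraries lay in the same range, 27.0 to 31.1 CPM. The log2 fold change of 0.32 ± 0.37 turned to -0.10 without wildtype replicate 1 and to 0.83 without wildtype replicate 2.

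Socs3 was at 202 and 151 CPM in wildtype and at 231, 206 and 172 CPM in knockout libraries of batch 1, overlapping, with a log2 fold change of 0.05 ± 0.38. Stat3 was at 238 and 180 CPM in wildtype and at 279, 290 and 204 CPM in knockout libraries, with 0.16 ± 0.38. In both genes wildtype replicate 2 was lowest and knockout replicate 3 next.

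The remaining STAT genes had negative estimates in batch 1, Stat4 the widest of the 9. Wildtype libraries had 111 and 105 CPM, against knockout values of 107, 97.3 and 76.7 CPM, with a log2 fold change of -0.33 ± 0.37. Stat2 was at 70.1 and 45.5 CPM in wildtype and at 62.9, 65.1 and 51.3 CPM in knockout libraries, with -0.11 ± 0.37. For Stat2 the wildtype pair enclosed all knockout values.

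Stat5b was at 290 and 264 CPM in wildtype and at 302, 300.4 and 246 CPM in knockout libraries, Stat5a at 81.1 and 71.5 against 81.1, 87.9 and 72.4 CPM, and Stat6 at 222 and 183 against 243, 221 and 184 CPM. Their log2 fold changes were -0.10 ± 0.37, -0.06 ± 0.37 and -0.05 ± 0.37. For Stat2, Stat5a, Stat5b and Stat6 the mean CPM was slightly higher in the knockout while the estimate was negative, because TMM factors ran from 0.837 in wildtype replicate 1 to 1.27 in knockout replicate 3. Neither sign is supported by a test.

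Counted together, 0 of the 9 genes passed in batch 1 (edgeR; 0 at an unadjusted p under 0.05; 0 by DESeq2), against 0.126% of 24600 genes called and 1.97% at an unadjusted p under 0.05. The 9 intervals spanned -1.07 to 1.06, so a knockout level below 0.477 or above 2.09 times wildtype lay outside the interval of each gene. The sum of the CD4 T cell markers did not overlap in this batch either, but lay lower in the knockout. It was 3031 and 2966 CPM in wildtype replicates 1 and 2. In knockout replicates 1, 2 and 3 it was 2570, 2676 and 2590 CPM. Of the 5 markers, 4 were lower in the knockout. Cd5 overlapped and had the higher mean there, 240 against 215 CPM. The part of these markers in the STAT and SOCS values was not tested.

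Which wildtype library was used moved nearly the whole set in batch 1. Without wildtype replicate 1, the estimates of 8 of the 9 genes were at their highest, and without wildtype replicate 2 the estimates of 8 of 9 were at their lowest; the exception was Socs1 in both. Stat3 went from 0.58 to -0.19, Stat2 from 0.44 to -0.54, Socs3 from 0.47 to -0.30, Stat6 from 0.29 to -0.35, Stat5a from 0.21 to -0.33 and Stat5b from 0.14 to -0.35. Stat4 stayed negative, from -0.10 to -0.55. The median of all genes moved the other way, from 0.01 to 0.32.

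The estimates also moved with knockout replicate 3, the library that stood apart by Xist and Ddx3y. Without it Stat2 turned to 0.076, Stat5a to 0.099, Stat5b to 0.076 and Stat6 to 0.14. Stat3 was then at 0.39, Stat4 at -0.12, Socs1 at 0.40, Socs3 at 0.25 and Cish at 0.14, and none of the 9 passed.

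Wildtype replicate 2 and knockout replicate 3 held the lowest values of the batch for 6 of the 9 genes, against 11.3% of all tested genes and 25% of those with a mean of at least 10 CPM. These libraries had the smallest totals of batch 1, 4926347 and 5069169 counts, and the largest sensory receptor shares, 0.153% and 0.255%. The part of these shares in the values was not tested. With both left out, an alternative chosen after seeing the data, Cish had a log2 fold change of 0.00 and Socs1 0.99. The wildtype library left is the one with the low Socs1 value, 12.6 CPM. That fit called 6.91% of 23892 genes, and it rests on wildtype replicate 1 alone, which is assumed to vary like the knockout libraries.

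**Figure D3:**
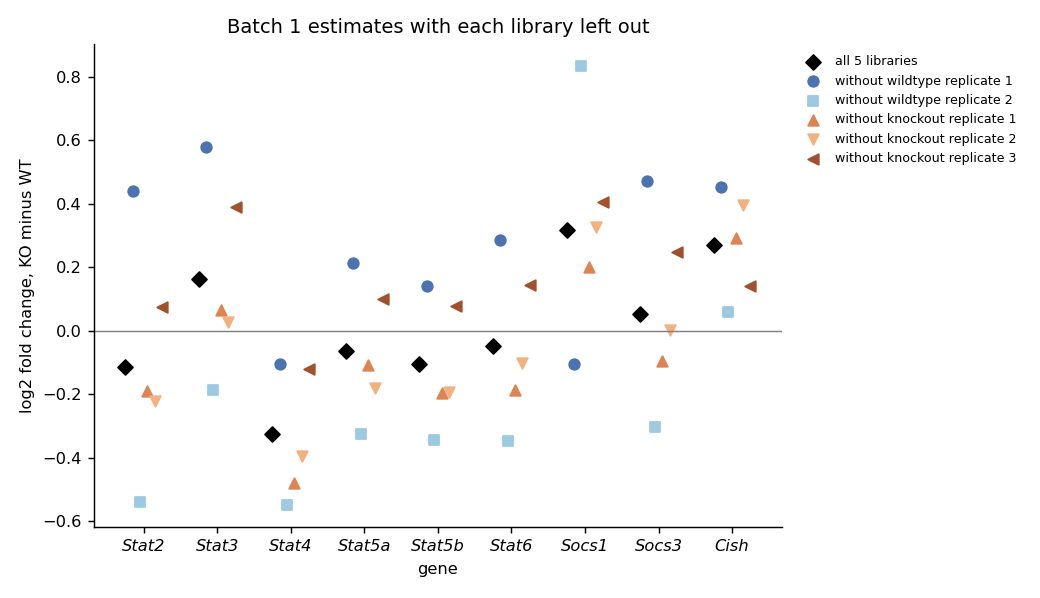
log2 fold change, knockout minus wildtype (vertical axis), of each gene in batch 1 with all 5 libraries (black diamonds) and with each library left out (symbols in the key). Estimates without wildtype replicate 1 are highest and those without wildtype replicate 2 lowest for every gene but Socs1, which runs from -0.10 to 0.83.

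Over both batches, in a fit with batch as a term, the estimates of all 9 genes lay near 0 and again 0 passed (edgeR; 0 at an unadjusted p under 0.05; 0 by DESeq2), against 0.00451% of 22197 genes called and 2.36% at an unadjusted p under 0.05. Stat3 had the highest estimate, 0.20 ± 0.15, and Stat2 the lowest, -0.09 ± 0.15. Stat5b, Stat6 and Stat5a each had 0.09, with standard errors of 0.12, 0.13 and 0.12. Stat4 had -0.03 ± 0.14. Among the inhibitors, Socs1 had 0.11 ± 0.23, Socs3 0.04 ± 0.15 and Cish 0.01 ± 0.20. Cish turned to -0.25 without wildtype replicate 2, and Stat3 to -0.03. The 95% intervals together spanned -0.44 to 0.61. A knockout level common to both batches below 0.738 or above 1.52 times wildtype thus lay outside the interval of each gene. Each interval holds for its gene alone and not for the 9 jointly. This fit shares all its libraries with the fits within batches and is no independent result.

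**Figure D4:**
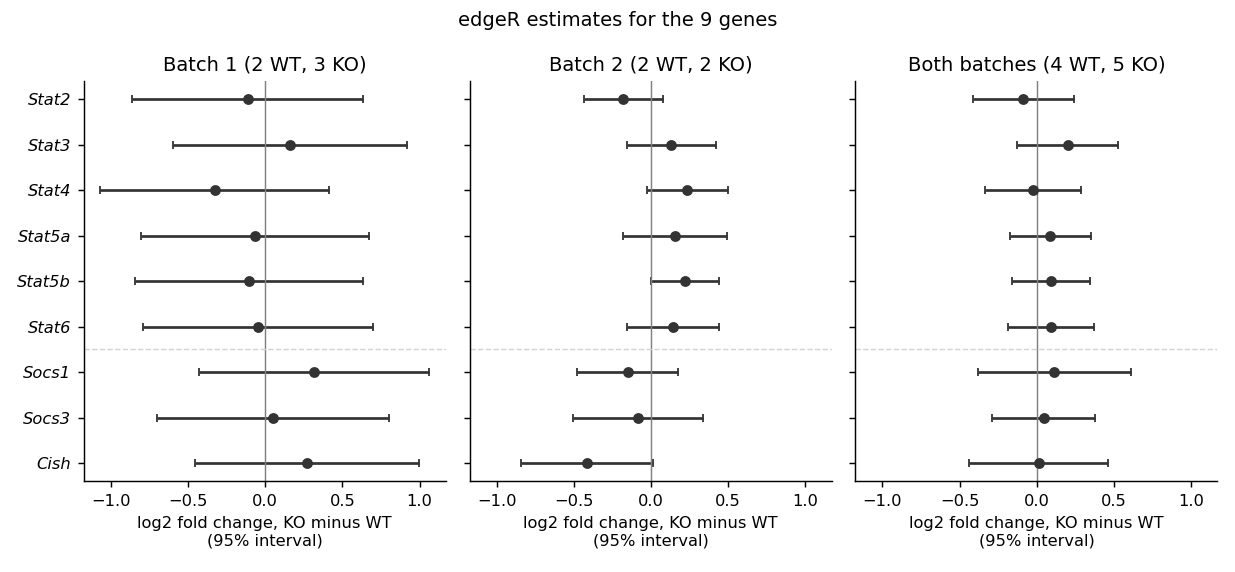
edgeR log2 fold changes, knockout minus wildtype (horizontal axis), with 95% intervals for the 6 STAT genes (above the dashed line) and the 3 inhibitors, in batch 1, batch 2 and both. Every interval includes 0, and those of batch 2, between -0.84 and 0.50, are narrower than those of batch 1, between -1.07 and 1.06.

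The interaction of genotype with batch, given as batch 2 minus batch 1, tested whether the 2 knockout effects differed. Cish had the widest value, -0.83 ± 0.33, with an unadjusted p of 0.0285 and an edgeR adjusted p of 0.591. Its estimate was positive in batch 1 and negative in batch 2, and on the CPM scale it was the 1 gene of the 9 that did not overlap in either batch with opposite directions, a pattern of 4.96% of 15288 genes. With the TMM scaling of the fits within batches, Cish overlapped in batch 1, at 52.1 in wildtype replicate 1 and 47.9 in knockout replicate 2. Socs1 followed with -0.53 ± 0.43, which was -0.12 without wildtype replicate 1, and Stat4 with 0.46 ± 0.26. The other genes lay between -0.25 (Socs3) and 0.22 (Stat5b), beside a median of -0.19 over all genes. None of the 9 passed with edgeR or DESeq2, and 1 had an unadjusted p under 0.05 in each. Of all genes, edgeR called 0.00451% and gave 8.36% an unadjusted p under 0.05. The DESeq2 share at that unadjusted level is not given here.

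The batches themselves differed more than the genotypes. In the TMM-scaled fit, all 6 STAT genes and 2 of the 3 inhibitors were called higher in batch 2. Of 22197 genes, 64.1% were called, 16.8% higher and 47.3% lower. Stat4 rose by 0.65 ± 0.14 (edgeR adjusted p = 0.00212), Stat3 by 0.52 ± 0.15 and Stat2 by 0.51 ± 0.15. Stat6 rose by 0.43 ± 0.13, Stat5a by 0.43 ± 0.12 and Stat5b by 0.31 ± 0.12. The mean CPM of Stat5b, without that scaling, was 277 in batch 1 and 275 in batch 2 for wildtype. For knockout it was 283 and 319. Cish rose by 0.61 ± 0.20 and Socs3 by 0.38 ± 0.15, while Socs1 had 0.45 ± 0.22 (edgeR adjusted p = 0.0995).

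Stat2 and Stat4 passed whichever single library was left out. Without wildtype replicate 1 the other 6 lost the call, with edgeR adjusted p from 0.0645 to 0.164, and without wildtype replicate 2 Stat3, Stat5b, Stat6 and Socs3 lost it (0.053 to 0.109). Socs3 also lost it without wildtype replicate 3 or knockout replicates 4 or 5, Stat5b without knockout replicates 4 or 5 and Cish without knockout replicate 5 (0.0517 to 0.124). Socs1 passed without wildtype replicates 2 or 3 or knockout replicates 1 or 3, with 0.60 to 0.84.

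These differences depended on the scaling as well. The fits placed the median gene at -0.76, or at -0.97 when upper quartiles set the scale, under which Stat4 alone of the 8 still passed. DESeq2 called 7 of the 9 genes, without Socs3 and Socs1. The shares of all genes called between batches by DESeq2 and with upper quartiles are not given here. With TMM the CD4 T cell markers were likewise higher in batch 2, 5 of 5 called, where edgeR called 16.8% of all genes higher. Depth and the sensory receptor share did not overlap between the batches and cannot be told apart from the batch in this design. Xist and Ddx3y followed the batch in every library but knockout replicate 3, which held both transcripts. The sex that they mark, which the labels do not give, thus cannot be told apart from the batch, here or in the interaction. Within batch 1, Ddx3y was counted in a knockout library only. The part of sex in any of these differences was not tested.

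The other genes of the pathway were read from lists written for this set. The 4 Janus kinases, which act between receptor and STAT, had 0 calls between genotypes in either batch (edgeR, 0 at an unadjusted p under 0.05; DESeq2, 0 calls). Jak1, shared by most of these receptors, had log2 fold changes of -0.35 ± 0.37 in batch 1 and 0.29 ± 0.12 in batch 2. Jak3, the kinase of the common gamma chain, had 0.34 ± 0.38 and -0.06 ± 0.11. Jak2 had -0.14 ± 0.37 and 0.07 ± 0.14, and Tyk2, a kinase of the IL-12 and interferon receptors, had 0.16 ± 0.38 and -0.09 ± 0.11.

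The 5 other SOCS genes (Socs2, Socs4, Socs5, Socs6 and Socs7) and the 9 phosphatases, PIAS proteins and adaptors that restrain the pathway also had 0 calls between genotypes with edgeR or DESeq2, and 0 at an unadjusted p under 0.05 in either batch with edgeR. Their median log2 fold changes were -0.09 and -0.02 in batch 1 and 0.07 and 0.03 in batch 2, beside 0.04 and -0.02 for all genes. The medians of the 6 STAT genes were -0.08 and 0.15 in the batches and those of the 3 inhibitors 0.27 and -0.15. Between batches Socs4 was higher in batch 2, by 0.81 ± 0.10 (edgeR adjusted p = 0.000158), and Socs5 lower, by -0.44 ± 0.14.

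Upstream and downstream of the STATs, edgeR called 0 genes between genotypes in either batch, and in batch 2 some had an unadjusted p under 0.05, as did 7.77% of all genes. The genes named here were chosen by that p after their values were seen. Of 20 cytokine receptors tested in batch 2 there were 3: Il23r, the receptor chain of Th17 cells that signals through STAT3, at -1.58 ± 0.31, Il7r, upstream of STAT5, at 0.36 ± 0.10, and Il6st, the shared IL-6 family chain, at 0.48 ± 0.16. Of 8 cytokines tested there were 2, Il22 at -2.74 ± 0.33 and Il17a at -3.29 ± 0.82, both made by Th17 cells. In batch 1 the 3 receptors had the opposite sign: Il23r 0.46 ± 0.50, Il7r -0.19 ± 0.37 and Il6st -0.26 ± 0.37. Il22 had -0.36 ± 0.69 there and Il17a -0.56 ± 1.02. DESeq2, which called 329 of 15910 genes in batch 2, called Il23r, Il22 and Il17a.

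Known STAT target genes did not share a direction in batch 2. Of 10 tested, 3 had higher and 7 lower estimates in the knockout, with a median of -0.18 beside -0.02 for all genes. Among the 10, 5 had an unadjusted p under 0.05 with edgeR, beside 7.77% of all genes. Gadd45g, a stress gene induced by IL-12 and IL-18 in Th1 cells, had -1.07 ± 0.21 and was called by DESeq2, and the kinase gene Pim1 had -0.57 ± 0.20. Bcl2, a survival gene downstream of STAT5, had 0.38 ± 0.12, Ccnd2, a cyclin, 0.36 ± 0.14 and Bcl6, the factor of follicular helper cells, 0.31 ± 0.11. The edgeR adjusted p of these 5 ran from 0.618 to 0.63. In batch 1 the count at an unadjusted p under 0.05 was 0 of 10, with 5 higher and 5 lower. The genes named had -0.18 ± 0.42 (Gadd45g), -0.09 ± 0.37 (Pim1), -0.02 ± 0.36 (Bcl2), 0.15 ± 0.37 (Ccnd2) and -0.21 ± 0.37 (Bcl6) there.

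After centring log2 CPM within each batch, with 0.5 CPM added, Stat5b, Stat5a and Stat6 varied little between libraries. Stat5b had a root-mean-square spread of 0.11, at the 10.7th percentile of 10386 named genes with a mean of at least 5 CPM. Stat5a had 0.13 and Stat6 0.14, at percentiles 17.4 and 20.1. Stat4, Stat2, Socs3 and Stat3 lay between 0.17 and 0.20, nearer the middle of these genes, at percentiles 35.6 to 50.6. Socs1 and Cish had wider spreads, 0.36 and 0.31, at the 81.2th and 76.2th percentiles, the first of them through wildtype replicate 1.

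The genes nearest to each member in this centred pattern over the 9 libraries are a description only, with libraries that share depth and batch. For Cish they were H2bc21, a histone H2B gene, Atp6v1g2 and Gas8, with root-mean-square differences of 0.089, 0.095 and 0.11, beside a median of 0.38 over all genes compared. For Socs3 they were Afg3l1, Susd6 and Atl3 (0.054, 0.057 and 0.058), and for Socs1 Nop16, Kctd6 and Aff2 (0.12, 0.12 and 0.12). For the STAT genes the nearest were Tmem123 to Stat5b (0.025), Rabgap1 to Stat6 (0.042), Wwp2 to Stat2 (0.044), Abcc5 to Stat4 (0.045), Kmt2a to Stat5a (0.047) and Wdr82 to Stat3 (0.057). None of these was another member of the set.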

How the data were processed

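Per the labels' protocols, libraries were built with an Ovation kit from column-purified RNA and read from one end. The submitters' processing notes list Salmon 1.2.0, R 4.0.3 and GRCm39 but no roles. Values are estimated counts (expected counts) for 39253 genes, in 1 table the authors deposited. Every nonzero value had a fraction, and whether lengths entered them was not tested. For the annotation release, strand setting and gene-level summary, the sources used here give nothing. A floor of 3 counts is 0.043 to 0.609 CPM by library and covers counting error only.

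Rounded counts went into edgeR 4.0.16 (R 4.3.3), with its robust quasi-likelihood fit, TMM, default filter (minimum count 10, minimum total 15) and Benjamini-Hochberg adjustment over all genes tested at 0.05. Fits covered each batch, both with batch as a term, and an interaction. Standard errors derive from the F statistic, and 95% intervals use its degrees of freedom. The code was tested on simulated data. Alternatives were DESeq2 1.42.0, upper-quartile scaling, no filter, a replicate block and leaving out libraries. The members and lists were chosen with earlier results of these data known. All 9 members are named; pathway genes are named where called between genotypes (at most 3 a list), the Janus kinases always, and others are said to be chosen by their values. Genes of like pattern are the 3 nearest to each inhibitor and the nearest to each STAT. One further gene of the naming rule is not reported here.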

Additional observations from a re-analysis of the deposited data

Results flagged for a closer look

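Each genotype was examined for each gene with both batches pooled, 18 groups in all, and 2 held a library whose gap to its nearest neighbour, as a share of the group's range, exceeded Dixon's 95% critical value. By that level, chance flags about 1 group in 20. Socs1 stood at 12.6 CPM in wildtype replicate 1, with the other wildtype libraries at 30.6 to 31.1 CPM. Stat5b stood at 246 CPM in knockout replicate 3, below the 300.4 to 322 CPM of the other knockout libraries. Pooling the batches can hide or create such a gap. Knockout replicate 3 also had the largest sensory receptor share, 0.255%, and differed from the other batch 1 libraries in Xist (30.4 CPM against 1745 to 2680) and Ddx3y (55.4 CPM against 0). The part of these in the value was not tested.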

How the results depend on the processing

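No STAT or SOCS gene passed between genotypes in any alternative but 1. The exception was Socs1 in batch 1 without both wildtype 2 and knockout 3 (0.99), which leaves 1 wildtype library, the one with the low Socs1 value. In batch 1, small estimates changed sign: Socs3 was -0.0058 with no filter, -0.086 with DESeq2 and -0.054 without both wildtype 2 and knockout 3, and with upper-quartile scaling Stat5a was 0.011 and Stat6 0.028. The median of all genes there moved from 0.04 to -0.08 with DESeq2 and 0.11 with upper quartiles. In batch 2 no estimate of the 9 changed sign except Socs3, when a library was left out. Over both batches, Stat5a was -0.0043, Socs3 -0.048 and Cish -0.11 with no filter, and Cish -0.18 without both wildtype 3 and knockout 3, where the interaction of Stat5a was -0.11. The causes were not tested. Each genotype had 2 or 3 libraries in a batch, and batch 1 libraries held fewer counts than those of batch 2.

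Counts of called genes over the whole table varied more. With no filter they were 68 in batch 1 (31 as reported), 34 in batch 2 (0), 2 over both (1), 2 for the interaction (1) and 25837 between batches (14221). DESeq2 called 329 in batch 2, 16 over both and 165 for the interaction, and upper-quartile scaling 6 in batch 1. Leaving out wildtype 2 and knockout 3 gave 1650 in batch 1, and leaving out wildtype 3 and knockout 3 gave 15 for the interaction. With 1 library left out, the counts were 33 to 118 in batch 1, 0 to 879 in batch 2, 0 to 3 over both, 1 to 238 for the interaction and 11456 to 18656 between batches.

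Replicate numbers were not taken to pair the samples, because numbers 3 lay in different batches. Deviations from group means correlated at 0.41, -0.43, -0.08 and -0.11 for numbers 1 to 4. With 2 wildtype libraries in each batch, their deviations mirror each other, so these correlations cannot decide whether samples were paired. With a replicate block, 58 genes were called in batch 1 and 355 for the interaction. Under the block, Stat2 was 0.16, Stat5a 0.14, Stat5b 0.11 and Stat6 0.19 in batch 1, Stat2 0.037 and Cish -0.15 over both batches, Stat5a -0.21 in the interaction, and Cish -0.025 between batches. No block could be fitted in batch 2, where no residual degrees of freedom would remain.

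With 1 library left out, batch 1 estimates ran from -0.54 to 0.44 for Stat2, -0.19 to 0.58 for Stat3, -0.33 to 0.21 for Stat5a, -0.35 to 0.14 for Stat5b, -0.35 to 0.29 for Stat6, -0.10 to 0.83 for Socs1 and -0.30 to 0.47 for Socs3. Socs3 in batch 2 ran from -0.30 to 0.16. Over both batches they ran from -0.36 to 0.028 for Stat2, -0.028 to 0.28 for Stat3, -0.18 to 0.051 for Stat4, -0.079 to 0.14 for Stat5a, -0.051 to 0.15 for Stat5b, -0.094 to 0.16 for Stat6, -0.17 to 0.21 for Socs1, -0.20 to 0.11 for Socs3 and -0.25 to 0.17 for Cish. The interaction ran from -0.70 to 0.33 for Stat2, -0.52 to 0.29 for Stat3, -0.13 to 0.45 for Stat5a, -0.21 to 0.46 for Stat6 and -0.63 to 0.19 for Socs3.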
